A study of Mus musculus with 18 samples.

Results

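The IL-6 cytokine family and its signal route through STAT3 were followed in mouse kidneys after ischemia/reperfusion (I/R) injury, in 10 genes chosen by name out of the 29307 genes in the deposited table. They are the ligands Il6, Lif, Il11, Clcf1 and Osm, the receptor chains Osmr, Il6ra and Il6st, the transcription factor Stat3 and the inhibitor Socs3. Whole-kidney mRNA was sequenced in IKKβΔTub and control mice, without injury (baseline), 2 days after I/R and 14 days after I/R, with 3 libraries in each of 6 groups. Both strains carried floxed IKKβ alleles and received doxycycline in the drinking water from 6 weeks of age, followed by a wash-out. IKKβΔTub mice also carried Pax8-rt-TA and LC1-Cre, which delete IKKβ along the tubule and leave it in other kidney cells, whereas the labels list the control mice as WT. Injury was made by clamping the left renal pedicle. Levels are the deposited ones, that is, reads of a gene over the 90th percentile of all genes in the same library. They can be compared between libraries for 1 gene, and between genes only per kb of exon.

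All 5 ligands signal through gp130, the shared receptor chain encoded by Il6st. IL-6 and IL-11 first bind a private receptor (IL-6Rα, encoded by Il6ra, and IL-11Rα), LIF pairs gp130 with the LIF receptor, oncostatin M pairs it with the oncostatin M receptor encoded by Osmr, and CLCF1 acts through the ciliary neurotrophic factor receptor together with gp130 and the LIF receptor. Receptor-bound JAK kinases then phosphorylate STAT3, which enters the nucleus and induces acute-phase and survival genes, among them Socs3, whose product binds gp130 and JAK and shuts the signal off. IKKβ is the kinase that releases canonical NF-κB, and Il6 and Lif are known NF-κB target genes.

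Library and label checks bear on the results as follows. The libraries held 26285452 to 66317182 reads at baseline and 12306138 to 25933188 after injury, so depth and injury cannot be told apart in comparisons with baseline. The deposited key also codes the animals by series, F81 at baseline, F96 at 2 days except F102 for control replicate 3, and F87 at 14 days. Series and time can therefore not be told apart in any comparison of times. By the labels 2 mice were pooled per library, but the deposited key lists 10 pools of 2 mice and 8 single mice. The single mice were control replicates 1 and 2 at baseline and control replicate 3 at 2 days. At 14 days they were control replicates 1 and 2 and every IKKβΔTub library. Pooling thus differed between groups, over which the fits share 1 spread. Ikbkb, the gene of IKKβ, separated the strains at baseline (0.376 to 0.551 in IKKβΔTub, 0.736 to 0.861 in control) and at 14 days (0.669 to 0.844 in IKKβΔTub, 1.11 to 1.21 in control). At 2 days it did not, with 0.856, 0.846 and 0.986 in IKKβΔTub against 0.829, 0.855 and 1.29 in the libraries labelled control, and replicates 1 and 2 of these also held 21 and 31 reads of Vmn1r32, a gene without reads in the baseline and 14-day control libraries and with 17 to 356 reads in each IKKβΔTub library. The strain of those 2 libraries is therefore in doubt, and several results that involve them are also given without them. Replicate 3, of series F102, is then the only control library left at 2 days. It held 3 reads of Vmn1r32, so no 2-day library labelled control was free of that gene. IKKβΔTub replicate 2 at 14 days stood apart, with a summed level of the 9 macrophage markers of 2.32 against 10.6 and 13.0 in the other two. Y-linked reads showed that the pools were not matched for sex: at baseline 2 of 3 IKKβΔTub libraries and 0 of 3 control libraries held over 100 such reads, at 2 days 3 of 3 and 1 of 3, and at 14 days 0 of 3 and 2 of 3. None of the 7 proximal tubule markers was at 0 in any group, and their summed level at baseline was 101 to 129 in IKKβΔTub and 110 to 167 in control.

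All 10 are protein-coding genes, placed here by GENCODE M21 on GRCm38. Osm and Lif are neighbours on chromosome 11, with Osm (ENSMUSG00000058755) at chr11:4236420-4241026 on the plus strand and Lif (ENSMUSG00000034394) at chr11:4257557-4272514 on the plus strand. The other ligand genes are Il6 (ENSMUSG00000025746) at chr5:30013114-30019981 on the plus strand, Il11 (ENSMUSG00000004371) at chr7:4772373-4782859 on the minus strand and Clcf1 (ENSMUSG00000040663) at chr19:4214238-4223490 on the plus strand. The receptor genes are Osmr (ENSMUSG00000022146) at chr15:6813577-6874969 on the minus strand, Il6ra (ENSMUSG00000027947) at chr3:89864059-89913196 on the minus strand and Il6st (ENSMUSG00000021756) at chr13:112464070-112510086 on the plus strand. Stat3 (ENSMUSG00000004040) lies at chr11:100885098-100939540 on the minus strand, and Socs3 (ENSMUSG00000053113) lies at chr11:117966079-117970047 on the minus strand.

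RefSeq promoter windows on GRCm38.p6 matched 8 of the 10 members, all but Clcf1 and Osm, in 9 windows of 250 bases upstream of the RefSeq start. Each was searched whole, though bases inside annotated UTR are not printed, and the search ran on both strands for the letters TTCNNNGAA (the STAT motif), GGGA and TTTCC parted by any 1 base (a κB motif) and TGANTCA (the AP-1 motif), which occurred in 7.02%, 0.356% and 6.75% of all 32851 RefSeq windows of this length. The 4 windows below held at least 1 of them and are shown for that reason. They are written 5′ to 3′ on the strand of the gene, with matches in capitals.
Il6, chr5:30012864-30013113, plus strand: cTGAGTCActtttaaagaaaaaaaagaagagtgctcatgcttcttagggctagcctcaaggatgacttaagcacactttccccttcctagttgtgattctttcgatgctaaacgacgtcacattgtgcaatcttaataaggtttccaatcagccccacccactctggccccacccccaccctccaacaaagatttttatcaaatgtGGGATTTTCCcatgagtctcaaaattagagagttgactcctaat
Lif, chr11:4257318-4257556, plus strand: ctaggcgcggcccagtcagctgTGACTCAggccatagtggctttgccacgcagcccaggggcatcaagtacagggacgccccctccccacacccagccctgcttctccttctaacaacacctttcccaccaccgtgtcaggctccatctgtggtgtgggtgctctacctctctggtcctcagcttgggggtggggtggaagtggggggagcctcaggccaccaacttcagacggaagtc
Il11, chr7:4778142-4778391, minus strand: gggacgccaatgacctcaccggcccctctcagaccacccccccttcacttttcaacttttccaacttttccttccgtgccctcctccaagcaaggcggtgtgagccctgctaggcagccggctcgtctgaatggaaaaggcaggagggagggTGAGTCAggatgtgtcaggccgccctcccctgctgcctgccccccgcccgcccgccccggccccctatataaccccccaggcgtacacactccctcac
Socs3, chr11:117969367-117969616, minus strand: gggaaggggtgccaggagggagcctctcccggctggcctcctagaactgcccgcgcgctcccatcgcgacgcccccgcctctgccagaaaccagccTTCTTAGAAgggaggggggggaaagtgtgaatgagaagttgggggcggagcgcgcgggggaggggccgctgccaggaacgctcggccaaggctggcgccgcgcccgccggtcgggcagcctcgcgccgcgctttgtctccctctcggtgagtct
The Il6 window held the κB letters GGGATTTTCC at positions -44 to -35 and the AP-1 letters TGAGTCA at -249 to -243, counted from the start site. The Lif window, printed up to where annotated transcript begins, held TGACTCA at -228 to -222, and the window of the downstream Il11 start held TGAGTCA at -98 to -92. The Socs3 window held the STAT letters TTCTTAGAA at -154 to -146. By GENCODE the Socs3 window overlaps an exon of a noncoding transcript of the gene, and the printed Il11 window lies in an intron of its longer transcripts. The other 5 windows, of Osmr, Il6ra, Il6st, Stat3 and the upstream Il11 start, held none of the 3 motifs in the 250 bases searched. The upstream end of the Osmr window lies inside annotated UTR, and none of that window is printed. A match is a run of letters and was not tested for binding.

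Most of the family's mRNAs rose after injury, and they did so on different schedules. Il6 passed the filter on low levels only through the control libraries at 2 days, where it was high. Unless stated, it is left out of the counts of change over time that involve these libraries. Osm passed that filter only through injured libraries, so its called rises over baseline, counted here, support nothing. Il11 reached the filter level at baseline only in control replicate 3, so it too needed injured libraries to pass. Its called rises over baseline, also counted here, support nothing either. Averaged over the strains, 6 of the 9 other members rose at 2 days relative to baseline (Lif, Il11, Clcf1, Osm, Osmr and Socs3) and none fell, in a comparison in which 39.6% of the 16342 tested genes rose and 18.3% fell. At 14 days relative to baseline 8 of the 10 rose (Lif, Clcf1, Osm, Osmr, Il6ra, Il6st, Stat3 and Socs3) and none fell, where 41.1% of tested genes rose and 19.1% fell. Between 2 and 14 days Osmr, Il6ra and Stat3 rose and Il11 fell, where 23.8% of tested genes rose and 26% fell. Changes were tested with limma on log2(level + 0.005), which understates the change of low genes, and a gene was called at a Benjamini-Hochberg adjusted p under 0.05 over all tested genes. After the libraries were rescaled by median ratios, which brought the median gene close to 0, 28.3% of tested genes rose and 29% fell at 2 days, 29.9% rose and 27.3% fell at 14 days, and Il6st was the member whose call at 14 days was lost.

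Cell type markers moved over the same times. Averaged over strains, all 9 macrophage markers rose at 2 days and at 14 days (median log2 change 3.06 and 3.13), as did all 5 fibroblast markers (1.69 and 1.81), while 4 of 7 proximal tubule markers fell at 2 days and all 7 at 14 days (-0.95 and -1.82). The summed macrophage level was 1.26 to 1.42 in IKKβΔTub and 1.62 to 2.10 in control at baseline, 11.7 to 13.0 in IKKβΔTub and 6.89 to 9.86 in libraries labelled control at 2 days, and 2.32 to 13.0 in IKKβΔTub and 20.03 to 27.9 in control at 14 days. The summed fibroblast level was 1.86 to 2.83 in IKKβΔTub and 2.79 to 3.34 in control at baseline, 15.7 to 19.7 in IKKβΔTub and 12.4 to 18.2 in libraries labelled control at 2 days, and 6.51 to 12.4 in IKKβΔTub and 9.28 to 15.7 in control at 14 days. The summed proximal tubule level was 77.5 to 109 in IKKβΔTub and 43.6 to 99.7 in libraries labelled control at 2 days, and 26.6 to 64.8 in IKKβΔTub and 19.4 to 24.5 in control at 14 days. The part of these cells in the members' changes was not tested, and in whole kidney fewer cells of a type and less RNA per cell cannot be told apart.

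**Figure D1:**
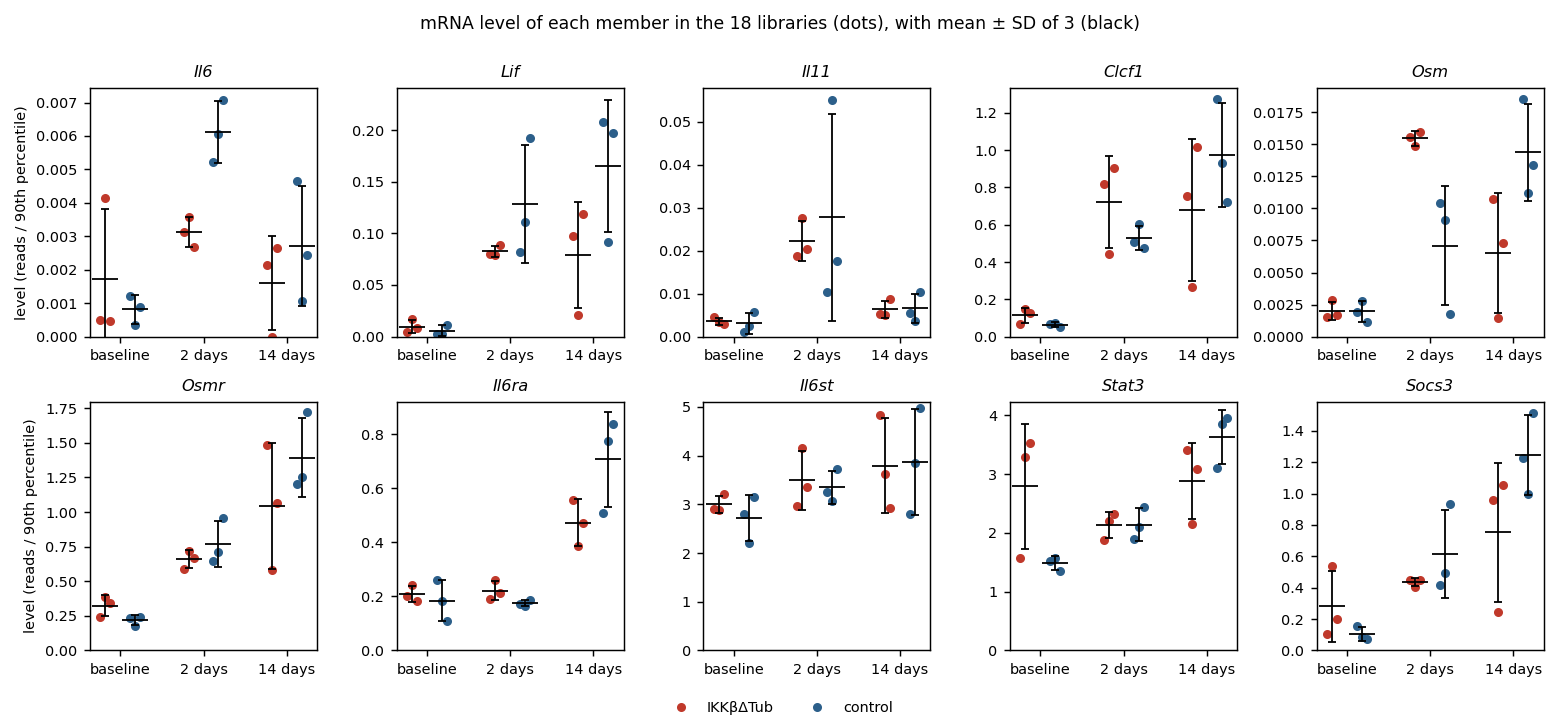
Level of each member (reads divided by the library's 90th percentile, linear axes from 0) at baseline and at 2 and 14 days, with IKKβΔTub (red) left of control (blue). Each dot is 1 library and the black marks are mean ± SD of 3. Il11 stood highest at 2 days and Il6ra at 14 days. IKKβΔTub replicate 2 at 14 days lay below every control library of that time in 8 of the 10 members, a count not made over all genes.

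Lif, the leukemia inhibitory factor, was among the most strongly induced ligands. Its baseline levels were 0.00403, 0.0166 and 0.00808 in IKKβΔTub and 0.00293, 0.00276 and 0.0116 in control. At 2 days they were 0.0802, 0.0794 and 0.0888 in IKKβΔTub and 0.0819, 0.111 and 0.192 in the libraries with the control label, and at 14 days 0.0974, 0.0205 and 0.119 in IKKβΔTub and 0.208, 0.0913 and 0.197 in control. All injured libraries lay above all baseline libraries, and the lowest injured one was the IKKβΔTub replicate that stands apart. The log2 change from baseline, averaged over strains, was 3.16 ± 0.37 (SE) at 2 days (adjusted p = 2.59e-06) and 3.16 ± 0.37 at 14 days (adjusted p = 3.67e-06), with no difference called between the times (-0.00, 95% CI -0.81 to 0.81).

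Clcf1, cardiotrophin-like cytokine factor 1, was the most abundant ligand mRNA and stayed high. Baseline levels were 0.0675, 0.147 and 0.125 in IKKβΔTub and 0.0679, 0.0752 and 0.0490 in control. At 2 days they were 0.820, 0.441 and 0.906 in IKKβΔTub and 0.507, 0.602 and 0.475 in the libraries with the control label, and at 14 days 0.756, 0.264 and 1.02 in IKKβΔTub and 1.27, 0.931 and 0.721 in control. No injured library overlapped the baseline range. Clcf1 rose by 2.79 ± 0.29 on the log2 scale at 2 days (adjusted p = 6.51e-07) and by 3.10 ± 0.29 at 14 days (adjusted p = 5.16e-07), and the call held in each strain and under every alternative run. The gene overlaps AC109138.7 on the same strand, so reads of the shared part cannot be told apart.

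Il11, the interleukin that drives stromal responses and fibrosis in several organs, rose early and then came down. Its baseline levels were 0.00453, 0.00327 and 0.00285 in IKKβΔTub and 0.000977, 0.00241 and 0.00580 in control. At 2 days they were 0.0187, 0.0276 and 0.0204 in IKKβΔTub and 0.0104, 0.0552 and 0.0177 in the libraries with the control label, and at 14 days 0.00515, 0.00512 and 0.00865 in IKKβΔTub and 0.00557, 0.00374 and 0.0103 in control. The 2-day libraries lay above all others, though the highest 14-day control library nearly reached the lowest of them. Averaged over strains, Il11 rose by 1.74 ± 0.27 on the log2 scale at 2 days (limma adjusted p = 4.56e-05). It needed injured libraries to pass the low-level filter, which at baseline only control replicate 3 reached, so this rise supports nothing. From 2 to 14 days it fell by 1.28 (SE 0.27, limma adjusted p = 0.000974), averaged over strains, and both calls held under every alternative run. At 14 days it was not called against baseline (log2 change 0.46, 95% CI -0.13 to 1.05). Within single strains the fall rested on few libraries: it was called in IKKβΔTub (-1.27, adjusted p = 0.0181) but not without replicate 2 at 2 days (adjusted p = 0.0537) or replicate 1 at 14 days (adjusted p = 0.0542), and in control (-1.30, adjusted p = 0.0151) but not without replicate 2 at 2 days (-0.74, adjusted p = 0.0873) or at 14 days (adjusted p = 0.0677), nor without the 2 libraries in doubt (-1.01, adjusted p = 0.0975).

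Osm encodes oncostatin M, which is made mainly by macrophages, neutrophils and T cells. It was low throughout, with 2 to 29 reads per library. At baseline it stood at 0.00151, 0.00284 and 0.00166 in IKKβΔTub and 0.00195, 0.00276 and 0.00116 in control. At 2 days it stood at 0.0156, 0.0148 and 0.0160 in IKKβΔTub and 0.0104, 0.00908 and 0.00177 in the libraries labelled control. Its levels at 14 days were 0.0107, 0.00146 and 0.00732 in IKKβΔTub and 0.0185, 0.0112 and 0.0134 in control. The order of the strains was thus opposite at the 2 times, with all IKKβΔTub libraries above control at 2 days and below it at 14 days. Averaged over strains it rose by 1.13 ± 0.23 at 2 days (adjusted p = 0.000461) and by 1.05 ± 0.23 at 14 days (adjusted p = 0.000875), relative to baseline on the log2 scale. It passed the low-level filter only through injured libraries, so these 2 calls support nothing. From 2 to 14 days it fell by 0.93 in IKKβΔTub (adjusted p = 0.0349), a call lost in 9 of 16 alternatives, among them edgeR (adjusted p = 0.137), DESeq2 (adjusted p = 0.134), each 2-day replicate left out and IKKβΔTub replicate 2 at 14 days left out (-0.56, adjusted p = 0.174). In control it was not called with all libraries (0.75, adjusted p = 0.0790) and was called as a rise without the 2 libraries in doubt (1.5, adjusted p = 0.0247). The difference between these 2 changes was -1.68 (95% CI -2.66 to -0.69, unadjusted p = 0.00186), which did not pass over all genes (limma adjusted p = 0.198), nor without the 2 libraries in doubt (-2.43, adjusted p = 0.218). At 2 days the summed level of the 8 neutrophil markers was 1.75 to 2.49 in IKKβΔTub and 0.741 to 0.864 in libraries labelled control. At 14 days it was 0.0593 to 0.299 in IKKβΔTub and 0.514 to 1.14 in control. In the 2-day libraries labelled control it was 0.864, 0.741 and 0.859, where Osm was lowest in replicate 3. The 8 T cell markers summed to 0.0783 to 0.129 in IKKβΔTub and 0.0819 to 0.136 in libraries labelled control at 2 days. At 14 days they summed to 0.0717 to 0.236 in IKKβΔTub and 0.289 to 0.509 in control. Macrophage levels are given above. The part of these cells in the Osm result was not tested.

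Il6 itself was the scarcest member, with 91 reads over the 18 libraries. Its levels were 0.000504, 0.00415 and 0.000475 in IKKβΔTub and 0.00122, 0.000345 and 0.000870 in control at baseline, the highest of them from 19 reads. At 2 days they were 0.00312, 0.00358 and 0.00266 in IKKβΔTub, from 3 to 7 reads, and 0.00521, 0.00605 and 0.00707 in the libraries labelled control, from 7 to 12 reads. At 14 days they were 0.00214, 0 and 0.00266 in IKKβΔTub and 0.00464, 0.00107 and 0.00243 in control. The 2-day control libraries were the highest of all, and Il6 passed the low-level filter only through them, so its called rise at 2 days (0.63 ± 0.17 on the log2 scale, adjusted p = 0.00424) supports nothing. Its called fall from 2 to 14 days (-0.44, adjusted p = 0.0391) was lost in 15 of 23 alternatives, the 2 libraries in doubt left out among them (adjusted p = 0.0865).

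Per kb of exon, Clcf1 held most of the ligand mRNA. It made up 67.1% to 89.9% of the summed level per kb of the 5 ligands in the 18 libraries, Lif made up 2.77% to 24.4%, and Il6 never more than 3.64%. In control kidneys at 14 days the mean levels per kb were 0.256 for Clcf1, 0.0380 for Lif, 0.00633 for Osm, 0.00315 for Il11 and 0.00112 for Il6. Clcf1 and Lif did not overlap in these libraries, whereas Osm and Il11 overlapped, as did Il11 and Il6. At 2 days the IKKβΔTub order was Clcf1 (0.190), Lif (0.0190), Il11 (0.0107), Osm (0.00681) and Il6 (0.00129), each apart from the next. The order of Il11 and Osm was therefore different at 2 days and at 14 days in control, where Osm stood above Il11 by its mean only.

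**Figure D2:**
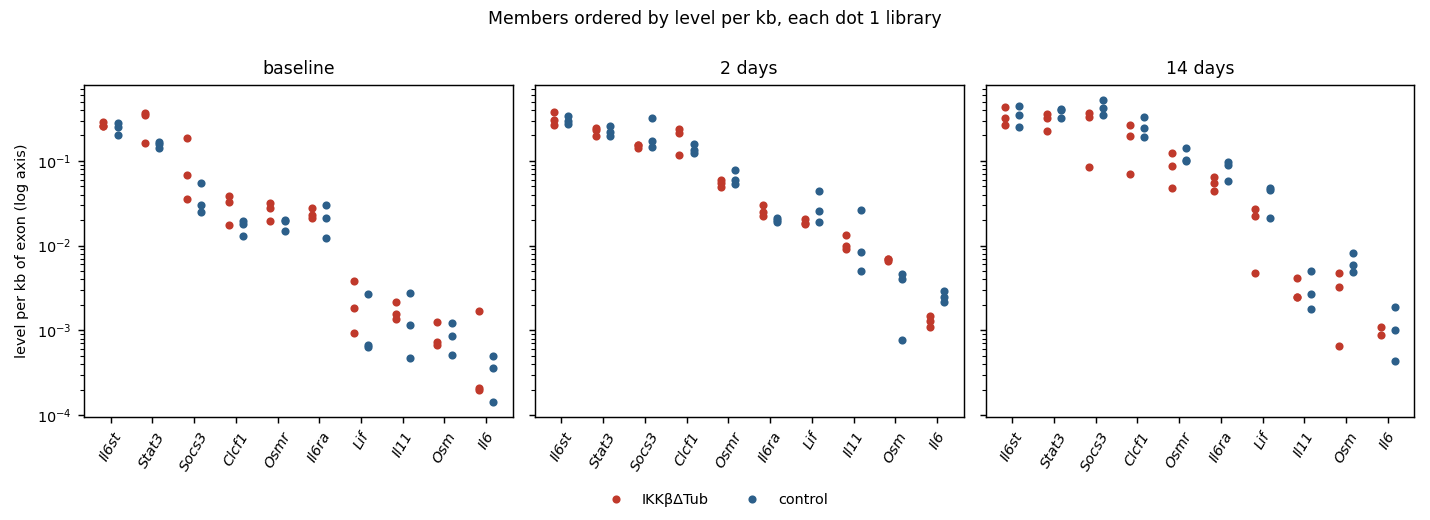
Level per kb of exon (log axis) of the 10 members at baseline, 2 and 14 days, each dot 1 library, IKKβΔTub (red) left of control (blue), genes ordered by their mean over all groups; the 1 library with 0 Il6 reads (IKKβΔTub, 14 days) cannot be drawn on this axis. By that mean Il6st, Stat3 and Socs3 lie highest and Il6 lowest, with Clcf1 above the other ligands in every library.

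The receptor chains split into one that was higher at both times after injury, one that rose late and one that hardly moved. Osmr, a signalling chain for oncostatin M, stood at 0.239, 0.387 and 0.340 in IKKβΔTub and 0.237, 0.178 and 0.241 in control at baseline. At 2 days it stood at 0.588, 0.721 and 0.669 in IKKβΔTub and 0.643, 0.713 and 0.959 in the libraries with the control label, and at 14 days at 1.49, 0.581 and 1.06 in IKKβΔTub and 1.20, 1.25 and 1.72 in control. All injured libraries were above all baseline libraries, and every control library at 14 days was above every library at 2 days. In IKKβΔTub the 14-day libraries spanned the range at 2 days, and no change between these times was called. Osmr rose by 1.42 ± 0.20 on the log2 scale at 2 days (adjusted p = 1.35e-05) and by 2.12 ± 0.20 at 14 days (adjusted p = 4.64e-07). The further rise from 2 to 14 days (0.70 ± 0.20, adjusted p = 0.00687) was not called without the 2 control libraries in doubt (0.54, adjusted p = 0.1004).

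Il6ra, the receptor that confines IL-6 binding to the cells that make it or meet its shed form, was flat at 2 days and rose by 14 days. Its levels were 0.200, 0.241 and 0.183 in IKKβΔTub and 0.260, 0.184 and 0.107 in control at baseline, and 0.192, 0.259 and 0.213 in IKKβΔTub and 0.172, 0.165 and 0.186 in the libraries labelled control at 2 days. At 14 days they were 0.558, 0.385 and 0.473 in IKKβΔTub and 0.507, 0.775 and 0.837 in control, with no overlap with any earlier library. The change at 2 days was 0.05 (95% CI -0.35 to 0.45). From 2 to 14 days Il6ra rose by 1.51 ± 0.19 on the log2 scale (adjusted p = 6.83e-06), by 1.07 in IKKβΔTub (adjusted p = 0.00553) and by 1.96 in control (adjusted p = 4.39e-05), and these calls held under every alternative run. The lowest 14-day level, 0.385, was that of IKKβΔTub replicate 2, and the part of macrophages in the Il6ra rise was not tested. Il6ra overlaps Gm42809 on the opposite strand, and whether the counting used strand is not given in the sources used here.

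Il6st, the shared gp130 chain, was the most stable member. It stood at 2.90, 2.89 and 3.21 in IKKβΔTub and 2.80, 2.22 and 3.15 in control at baseline, at 2.97, 4.15 and 3.36 in IKKβΔTub and 3.26, 3.07 and 3.72 in libraries labelled control at 2 days, and at 4.84, 3.61 and 2.92 in IKKβΔTub and 2.80, 3.85 and 4.97 in control at 14 days. The 3 times overlapped in both strains. Its called rise at 14 days (0.40 ± 0.15 on the log2 scale, adjusted p = 0.0330) was lost after rescaling by median ratios (0.17, adjusted p = 0.389) and in 10 of 22 alternatives in all.

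Stat3, the transcription factor of the route, differed between strains at baseline in level more than any other member by unadjusted p. Baseline levels were 1.57, 3.29 and 3.52 in IKKβΔTub and 1.52, 1.58 and 1.36 in control. At 2 days they were 1.88, 2.20 and 2.31 in IKKβΔTub and 1.89, 2.10 and 2.44 in the libraries with the control label, and at 14 days 3.404, 2.15 and 3.08 in IKKβΔTub and 3.10, 3.85 and 3.95 in control. In control the 3 times followed each other without overlap, whereas in IKKβΔTub replicates 2 and 3 at baseline lay within or above the range of that strain at 14 days. Stat3 rose in control from baseline to 14 days by 1.28 ± 0.25 on the log2 scale (adjusted p = 0.000490) and from 2 to 14 days by 0.76 (adjusted p = 0.0240), the second call being lost without the 2 libraries in doubt (0.57, adjusted p = 0.336). In IKKβΔTub the change at 14 days was 0.10 (95% CI -0.43 to 0.64, and -0.24 by edgeR), and averaged over strains it was 0.69 (adjusted p = 0.00265, and 0.0652 by edgeR). At 2 days it was -0.31 in IKKβΔTub (adjusted p = 0.312), and edgeR and DESeq2 called it lower there (adjusted p = 0.0282 and 0.0148). One end of Stat3 overlaps Stat5a on the opposite strand.

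Socs3, the feedback inhibitor and a direct STAT3 target, rose in control at both times. It stood at 0.104, 0.537 and 0.199 in IKKβΔTub and 0.157, 0.0873 and 0.0716 in control at baseline. At 2 days it stood at 0.451, 0.406 and 0.447 in IKKβΔTub and 0.417, 0.494 and 0.936 in the libraries with the control label, and at 14 days at 0.960, 0.245 and 1.05 in IKKβΔTub and 1.23, 0.999 and 1.51 in control. All injured control libraries were above all baseline control libraries, while in IKKβΔTub baseline replicate 2 was above every 2-day library and above replicate 2 at 14 days. In control Socs3 rose by 2.48 ± 0.54 on the log2 scale at 2 days (adjusted p = 0.00210, and 3.17, adjusted p = 0.0120, without the 2 libraries in doubt) and by 3.56 ± 0.54 at 14 days (adjusted p = 7.29e-05). In IKKβΔTub the changes were 0.94 at 2 days (adjusted p = 0.162, or 0.0240 without baseline replicate 2) and 1.47 at 14 days (adjusted p = 0.0410, lost in 11 of 16 alternatives). Averaged over strains it rose by 1.71 ± 0.38 and 2.51 ± 0.38 at the 2 times (adjusted p = 0.00120 and 4.04e-05). Per kb, Socs3 had the highest mean of all members in control at 14 days (0.431, against 0.381 for Stat3 and 0.349 for Il6st), though these neighbours overlapped.

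By strain, 5 members were called higher at 2 days in IKKβΔTub (Lif, Il11, Clcf1, Osm and Osmr, where 35.4% of tested genes rose and 14.9% fell) and, Il6 apart, 5 in control (Lif, Il11, Clcf1, Osmr and Socs3, where 25.4% rose and 11.3% fell). At 14 days 5 were called higher in IKKβΔTub (Lif, Clcf1, Osmr, Il6ra and Socs3, where 28.3% rose and 11.2% fell) and 7 in control (Lif, Clcf1, Osm, Osmr, Il6ra, Stat3 and Socs3, where 32.5% rose and 17.3% fell). From 2 to 14 days Il6ra rose and Il11 and Osm fell in IKKβΔTub, where 14.1% of tested genes rose and 19.6% fell, and Osmr, Il6ra and Stat3 rose and Il11 fell in control, where 16.8% rose and 18.2% fell. After rescaling by median ratios, 24.1% of tested genes rose and 24.9% fell in IKKβΔTub at 2 days, and 19.1% rose and 16.6% fell in control. At 14 days these shares were 18.9% and 18% in IKKβΔTub and 24.7% and 23.2% in control. Both changes of a strain share its baseline libraries. Osm is in the 2-day count of IKKβΔTub and the 14-day count of control. It passed the filter only through injured libraries, so these 2 calls support nothing. Il11, in the 2-day counts of both strains, needed injured libraries to pass the filter, so its calls there support nothing either. Without the 2 control libraries in doubt, 6 members, Il6 included, were called in control at 2 days and 2 from 2 to 14 days, with 1 control library left, which was assumed to vary like the other groups. Without IKKβΔTub replicate 2 at 14 days, 6 members were called in IKKβΔTub at that time relative to baseline. The shares of all tested genes called in these reduced fits were not counted, so whether the counts are particular to the members is not known.

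**Figure D3:**
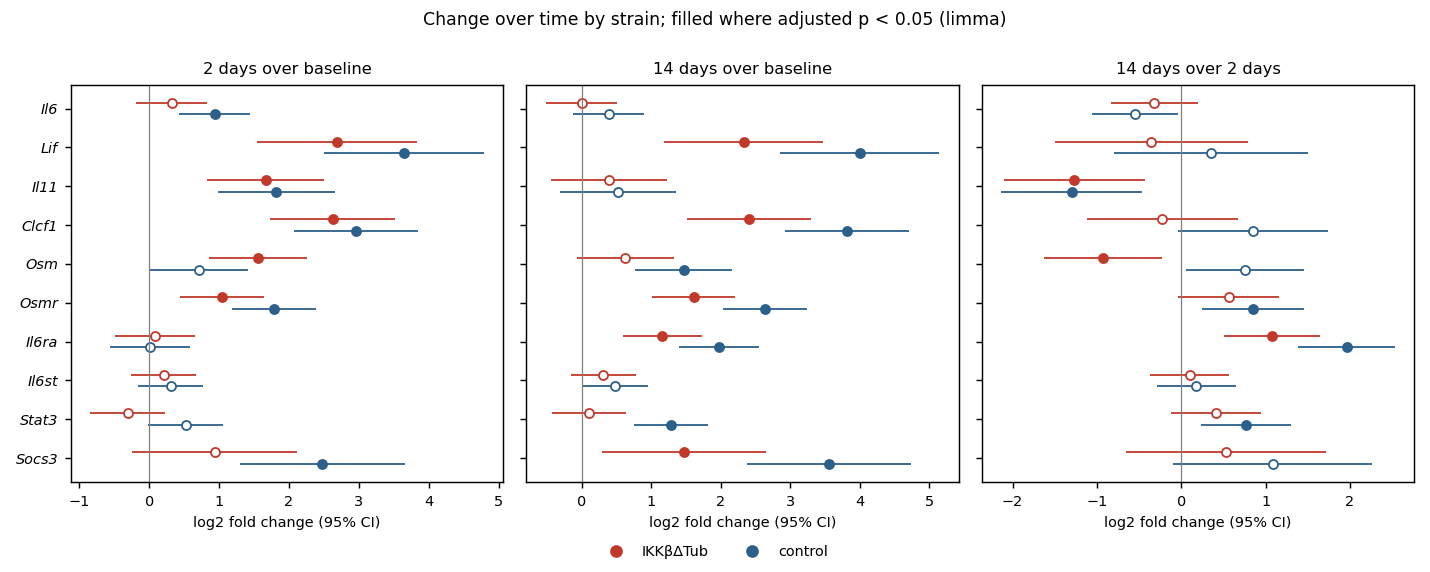
Log2 change of each member between times (points, with 95% confidence intervals from limma's SE) in IKKβΔTub (red, upper) and control (blue, lower). Filled points passed an adjusted p of 0.05. Lif and Clcf1 rose at both times, and Il11 fell and Il6ra rose from 2 to 14 days in both strains.

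Tubular IKKβ deletion was then compared with control at each time, which asks whether NF-κB activation in the tubule sets the level of the family. None of the 10 members passed in IKKβΔTub relative to control at baseline, 2 days or 14 days by limma, where 0.0428%, 0% and 0.367% of all tested genes were called. EdgeR called none of them at any time (0.483%, 0% and 0.0306% of all genes), and DESeq2 called 1, Stat3 at baseline (4.52%, 0.00612% and 3.07% of all genes). At an unadjusted p under 0.05 there were 1, 1 and 3 members at the 3 times, against 15.6%, 6.76% and 14% of all tested genes. The members' median log2 difference was 0.35 at baseline, -0.02 at 2 days and -0.53 at 14 days, against -0.09, 0.02 and -0.05 over all genes, with 10, 4 and 0 of the 10 members above 0. Il6 is in all these counts at 2 days, although it passed the filter only through the control libraries of that time. Its value then supports nothing. The intervals were wide, so differences of the following sizes were not resolved with 3 libraries a group.

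At baseline Stat3 was higher in IKKβΔTub by 0.83 ± 0.25 on the log2 scale (95% CI 0.29 to 1.36, unadjusted p = 0.00383, adjusted p = 0.154). It passed by DESeq2 (adjusted p = 0.00841) and without IKKβΔTub baseline replicate 1 (1.20, adjusted p = 0.00157), which overlapped control. Socs3 differed by 1.13 (95% CI -0.05 to 2.31) and Clcf1 by 0.73 (95% CI -0.17 to 1.62). The IKKβΔTub replicates with high Stat3, 2 and 3, were those with 10553 and 10163 Y-linked reads, while replicate 1 held 0 and the control libraries 0 to 8. Adjusted for Y-linked expression, the Stat3 difference was 0.68 (adjusted p = 0.521), so sex and strain cannot be told apart here. Summed neutrophil markers were also higher in those replicates, at 0.455 and 0.279, against 0.0861 in replicate 1 and 0.0241 to 0.0790 in control, and their part in the result was not tested.

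At 2 days Osm was the only member under 0.05 by limma's unadjusted p between strains (0.85 on the log2 scale, 95% CI 0.15 to 1.55, limma adjusted p = 0.713). The smallest differences were those of Stat3 (-0.00, 95% CI -0.54 to 0.53), Il11 (-0.03, 95% CI -0.87 to 0.80) and Il6st (0.05, 95% CI -0.42 to 0.52). Il6 differed by -0.45 (95% CI -0.96 to 0.06), which supports nothing, as it passed the filter only through these control libraries. Without the 2 libraries in doubt none passed either, with 1 control library left.

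At 14 days Lif differed by -1.23 (95% CI -2.37 to -0.08, adjusted p = 0.301), Osm by -0.83 (95% CI -1.53 to -0.13, adjusted p = 0.240) and Il6ra by -0.56 (95% CI -1.13 to 0.01, adjusted p = 0.349), all on the log2 scale by limma. Socs3 differed by -0.96 (95% CI -2.14 to 0.22) and Clcf1 by -0.68 (95% CI -1.58 to 0.21). These values rest in large part on IKKβΔTub replicate 2, which was the lowest IKKβΔTub library in 9 of the 10 members. The share of all genes lowest in that library was not counted, so whether this is particular to the members is not known. Without replicate 2 the differences were -0.51 for Lif, -0.46 for Osm, -0.42 for Il6ra and -0.29 for Socs3. Macrophage markers in that library were at 2.32, against 20.03 to 27.9 in control, and their part in the result was not tested.

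**Figure D4:**
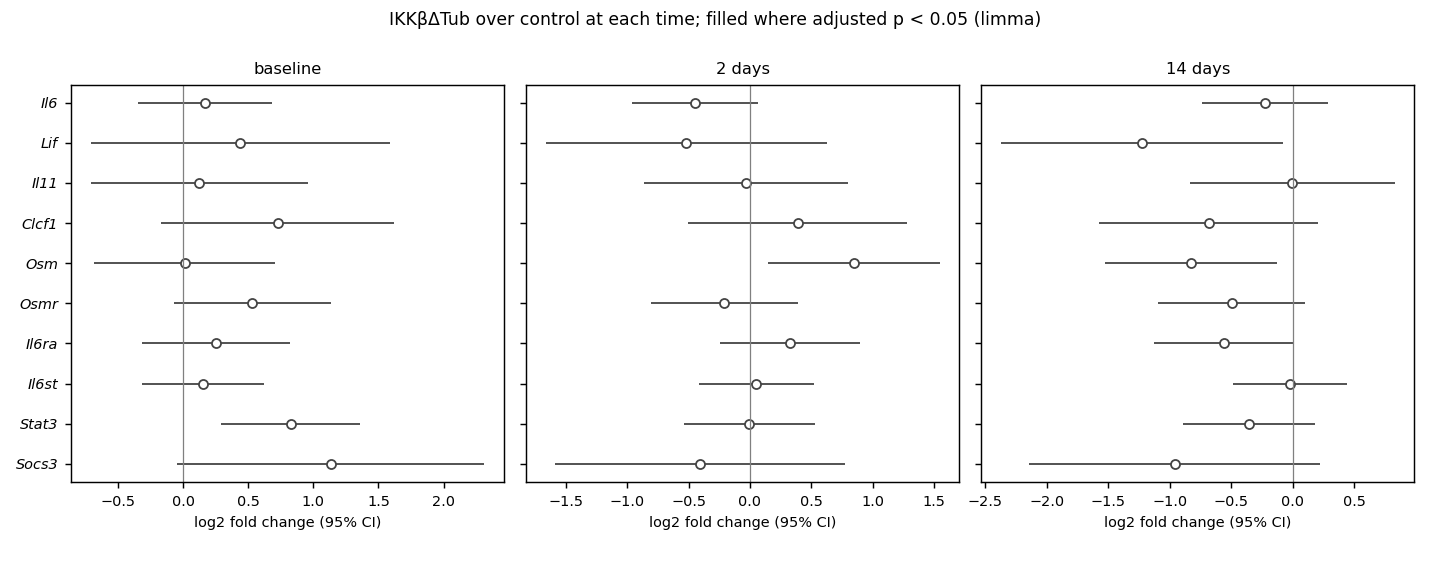
Log2 difference of each member, IKKβΔTub over control, at baseline, 2 and 14 days (points, with 95% confidence intervals from limma's SE). No point passed an adjusted p of 0.05; all 10 lie above 0 at baseline and all 10 below 0 at 14 days.

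The change with time was also compared between strains. From baseline to 14 days the fitted change was lower in IKKβΔTub than in control for all 10 members (median difference -0.93, against 0.04 over all tested genes), and 6 had an unadjusted p under 0.05, against 17.4% of tested genes. That sign was fixed for all 10 members by the strain differences above, which lay above 0 at baseline and below 0 at 14 days. None passed by limma or edgeR, which called 0.116% and 0.239% of tested genes, and DESeq2, which called 5.27%, called Stat3 (adjusted p = 0.0179). The 10 members share the same libraries and are not independent counts. Leukocyte markers had lower fitted changes in IKKβΔTub in the same comparison (median difference -3.15 for neutrophil, -1.17 for macrophage and -1.05 for T cell markers, none of their genes called), and their part in the members' values was not tested. Libraries with Y-linked reads went the opposite way in the strains, 0 of 3 at 14 days and 2 of 3 at baseline in IKKβΔTub and 2 of 3 and 0 of 3 in control, and with a Y-linked covariate the limma calls over all genes were 0, against 19. The largest differences were those of Socs3 (-2.09, 95% CI -3.76 to -0.42, limma adjusted p = 0.1801), Lif (-1.67, adjusted p = 0.262), Clcf1 (-1.41, adjusted p = 0.228) and Stat3 (-1.18, adjusted p = 0.116). Without IKKβΔTub baseline replicate 1, Stat3 (adjusted p = 0.00367) and Socs3 (adjusted p = 0.0446) passed. Without IKKβΔTub replicate 2 at 14 days the Socs3 difference was -1.42 and the Stat3 difference -0.98. No member passed for the other 2 pairs of times by limma, edgeR or DESeq2, which called 0%, 0.0122% and 2.26% of tested genes for baseline to 2 days and 0.0306%, 0.0122% and 0.612% for 2 to 14 days. At an unadjusted p under 0.05 there were 1 and 2 members, against 15% and 9.75% of tested genes. Both comparisons include Il6 and use the 2-day control libraries that let it through the filter, so its values there support nothing.

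Of 12 other ligand and receptor genes of the family, 9 were tested, and averaged over strains 3 rose and 3 fell at 2 days, 4 rose and 2 fell at 14 days relative to baseline, and 2 rose and 2 fell between 2 and 14 days. Over all tested genes 39.6% rose and 18.3% fell at 2 days, 41.1% and 19.1% at 14 days, and 23.8% and 26% between these times, and the median log2 changes were 0.08, 0.32 and -0.12 for the list, against 0.20, 0.24 and 0.00. Cntfr, the ligand-binding chain for CLCF1 and CNTF, was lowest at 2 days. It stood at 0.235 to 0.270 in IKKβΔTub and 0.214 to 0.434 in control at baseline, at 0.0962 to 0.146 in IKKβΔTub and 0.0937 to 0.123 in libraries labelled control at 2 days, and at 0.271 to 0.511 in IKKβΔTub and 0.167 to 0.444 in control at 14 days. All 2-day libraries lay below all others. Cntfr fell by 1.38 at 2 days (adjusted p = 8.19e-05) and rose by 1.55 from 2 to 14 days (adjusted p = 4.06e-05), whereas Clcf1 itself was not called between these times (0.31, 95% CI -0.32 to 0.94), or only without IKKβΔTub replicate 2 at 14 days (0.60, adjusted p = 0.0391). Lifr, the LIF receptor, also fell by 0.62 on the log2 scale at 2 days (adjusted p = 3.41e-05) and rose by 0.83 afterwards (adjusted p = 2.73e-06). Il27ra, the receptor of IL-27, rose by 2.59 at 2 days (adjusted p = 9.35e-08) and fell by 0.92 from 2 to 14 days (adjusted p = 0.00302).

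**Figure D5:**
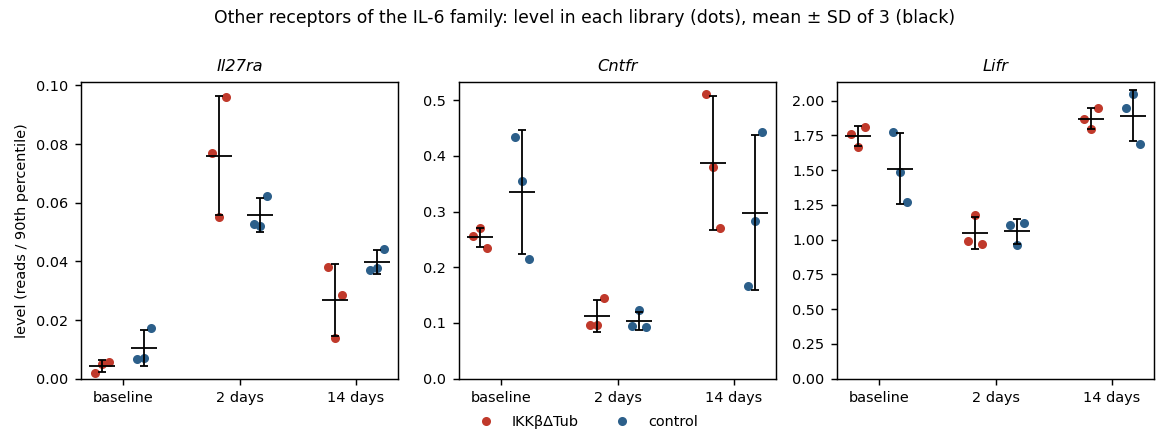
Levels of Il27ra, Cntfr and Lifr in each library (dots; reads divided by the library's 90th percentile, axes from 0) with mean ± SD of 3 (black), IKKβΔTub (red) left of control (blue). Il27ra stood highest at 2 days, when Cntfr and Lifr stood lowest.

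Downstream of the receptors, 13 genes of kinases, other STATs and inhibitors were all tested. Averaged over strains 8 rose and 4 fell at 2 days, 11 rose and none fell at 14 days relative to baseline, and 4 rose and 1 fell between the times, against the same shares of all genes (39.6% and 18.3%, 41.1% and 19.1%, 23.8% and 26%). The kinase gene Tyk2 rose by 1.19 at 2 days (adjusted p = 1.96e-06). Socs2 and Cish, inhibitors best known as STAT5 targets, fell by 0.65 and 0.84 at 2 days on the log2 scale (adjusted p = 0.00460 and 0.000144), the opposite direction to Socs3. Socs2 then rose by 1.52 from 2 to 14 days (adjusted p = 4.01e-06), as did the kinase gene Jak2 by 0.76 (adjusted p = 0.000332).

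Of 24 STAT3 target and acute-phase genes, 21 were tested. Averaged over strains 11 rose and 3 fell at 2 days, 18 rose and 1 fell at 14 days relative to baseline, and 10 rose and 4 fell between the times, with median log2 changes of 0.79, 1.56 and 0.29. The shares of all genes were again 39.6% and 18.3%, 41.1% and 19.1%, and 23.8% and 26%. Timp1, an inhibitor of matrix proteases, and Lcn2, the iron-binding injury marker of the tubule, rose by 6.14 and 4.61 at 2 days (adjusted p = 2.85e-08 and 3.07e-07). Timp1 fell by 2.56 from 2 to 14 days (adjusted p = 0.000378), as did Hp, the haemoglobin scavenger haptoglobin, by 2.28 (adjusted p = 0.00843). The fibrinogen genes Fgg and Fga rose late, by 3.37 and 3.27 between these times (adjusted p = 2.01e-05 and 2.83e-05). At 14 days Fgg stood at 1.92, 3.05 and 3.18 in IKKβΔTub and 9.92, 11.3 and 4.90 in control, without overlap, although the difference was not called (-1.63, limma adjusted p = 0.260). Cebpd, a transcription factor of the acute phase, and the kinase gene Pim3 fell at 2 days by 1.25 and 1.16 (adjusted p = 0.00326 and 0.000242). Between strains 1 gene of the list was called, Saa1 at 14 days (-2.58, limma adjusted p = 0.0313), where 0.367% of all genes were called, and the list's median difference then was -1.09, against -0.05 over all genes. Saa1 was picked out after its value was seen.

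The members' patterns over the 18 libraries were most alike for Lif, Clcf1, Osmr and Socs3. Pearson's r of log2(level + 0.005) was 0.94 between Osmr and Socs3, 0.93 between Lif and Clcf1, 0.93 between Lif and Osmr and 0.91 between Clcf1 and Osmr. Il6ra and Il11 had an r of -0.22, and Il6ra and Il6 one of -0.09. These are descriptions over libraries that share injury groups and depth. Among all tested genes the nearest patterns were those of Lcn2 (r = 0.98) and Relb (0.98), a subunit of non-canonical NF-κB, for Lif, Utp14a (0.98) for Clcf1, Ppl and Icam1 (0.97 each) for Osmr, Sphk1 and Cd14 (0.97 each) for Socs3 and Cxcl10 (0.87) for Il6. For Il11, Osm, Il6ra, Il6st and Stat3 they were Ifi27l2b (0.92), Gm26740 (0.94), Tcp11l2 (0.96), Myh10 (0.94) and Inhbb (0.95).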

How the data were processed

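Poly(A)-selected, stranded kidney libraries were sequenced by the authors, and the processing notes name Trim Galore 0.4, STAR 2.5.2b and featureCounts 1.5.2. The deposited values are a signal, gene read counts scaled by the library's 90th percentile. All values were whole multiples of 1 read within 0.001 read, so read counts were recovered and 100% of values came out whole. Gene positions and exon lengths are those of GENCODE M21 on GRCm38, matched by Ensembl identifier; the table's own starts equal them for only 2.86% of genes, so its coordinates were not used. Promoters are RefSeq's.

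Genes at 0.005 or more in at least 3 of 18 libraries (16342, all 10 members among them) were fitted with limma 3.58.1 (R 4.3.3, trend) on log2(level + 0.005), with 6 group means. The authors' own test was DESeq2; here edgeR 4.0.16 (quasi-likelihood test, TMM) and DESeq2 1.42.0 on recovered reads were alternatives. Other alternatives were other pseudocounts, no filter, median-ratio rescaling, no trend, Y-linked expression as a covariate, the replicate number as a block, fits of the compared libraries only, and leaving libraries out. The 95% confidence intervals take limma's SE with the residual degrees of freedom of the fit. Limma's tests use more degrees of freedom, so the intervals are wider than those tests imply and can cross 0 where the unadjusted p is under 0.05. P-values measure only the spread between these libraries. The fits were tested on simulated data.

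The members and all lists were chosen with earlier results of these data known. Of the other lists the 2 genes with the largest positive and the 2 with the largest negative change among those passing, at 2 days against baseline and at 14 against 2 days, were named, with the nearest patterns by Pearson's r. Some genes that this rule names are not reported here. Cebpb of the target list had no row of that name and was not analysed here.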

Additional observations from a re-analysis of the deposited data

How the results depend on the processing

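Of 50 called member results, 878 of 942 alternative values kept their direction and their call, 64 lost the call and none changed sign. The counts of members called, Il6 included, that moved by over 1.5 times were the following. Without the 2 control libraries in doubt at 2 days, the count from 2 to 14 days was 2 in control, against 4, and 2 for the mean of the strains, against 5. DESeq2 called 1 member, Stat3, between strains at baseline and 1, Stat3, for the strain difference of the change from baseline to 14 days, against 0 by limma. Leaving out 1 library at a time, the count from 2 to 14 days ran from 1 (without replicate 2 at 2 days) to 3 in IKKβΔTub and from 1 (without replicate 2 at 2 days) to 5 in control. The count between strains at baseline ran from 0 to 1, and the counts for the strain difference of the change ran from 0 to 1 for baseline to 2 days and from 0 to 2 for baseline to 14 days, the highest of each without IKKβΔTub baseline replicate 1. Shares over all genes were not counted for the fits that left libraries out. The causes were not tested.

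With the replicate number as a block, the count was 4 in IKKβΔTub at 14 days against baseline (Socs3 lost) and 4 for the mean of the strains from 2 to 14 days (Il6 lost), and no other count changed. The numbers did not pair the libraries: same-numbered libraries correlated between -0.352 and 0.44 (median -0.0142), and 4 of 18 were closest to one of their own number.

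Over all tested genes the strain calls by limma depended strongly on the method: 7, 0 and 60 at baseline, 2 and 14 days, against 738, 1 and 501 by DESeq2, 79, 0 and 5 by edgeR and 1, 0 and 10 with the Y-linked covariate. For the strain difference of the change from baseline to 14 days, limma called 19 and DESeq2 861. IKKβΔTub calls at 14 days against baseline were 6450, or 4097 with the Y-linked covariate and 3062 when only the compared libraries were fitted. Il6, Il11 and Osm rest on few reads (91, 341 and 235 in all), so small differences in them were not detectable at this depth.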
